A study of Mus musculus with 9 samples.

Results

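A set of 9 genes of striatal dopamine signaling was examined in the mouse hippocampus: Drd1, Drd2, Adora2a, Gpr6, Ppp1r1b, Rgs9, Pde10a, Penk and Tac1. They were taken by gene name from tables that list 54532 genes, and all 9 were found once. They were chosen by name with their FPKM in these same libraries known, among them the differences of Drd2, Penk and Tac1 between groups, so their own levels and differences are given as a description, with no test.

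In the striatum, dopamine acts on spiny projection neurons of 2 kinds. Neurons of the direct pathway carry the D1 receptor, which raises cyclic AMP (cAMP), and make substance P. Neurons of the indirect pathway carry the D2 receptor, which lowers cAMP, together with the adenosine A2A receptor and the orphan receptor GPR6, and make enkephalin. Both kinds hold the phosphatase inhibitor DARPP-32, the cAMP and cGMP phosphodiesterase PDE10A and RGS9, which shortens signaling through inhibitory G proteins. In the hippocampus most of these genes are known at lower levels, from scattered neurons and from some granule cells of the dentate gyrus.

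Total RNA was sequenced in 9 samples of hippocampus from mice labelled male C57BL/6, 6 to 8 weeks old when bought and kept in pairs, with Con labelled wild type and the strain of 2 Bet+HMD samples labelled C57BL/7 and C57BL/8. The paper on this diet describes its mice as female, so the sources conflict on sex. The Con group received standard chow. For HMD, the chow was replaced for 8 weeks by a diet high in methionine, which raises homocysteine. Bet+HMD mice had the same diet for 8 weeks and then betaine, a methyl donor that returns homocysteine to methionine, at 2.5% (w/v) in the drinking water for 2 weeks, and whether the diet went on during betaine is not clear. Each group had 3 libraries, and nothing in the sources used here says whether a library came from 1 animal. The first table held the 6 Con and HMD libraries, and a later one held these 6 again with the 3 Bet+HMD libraries. Levels are in FPKM (fragments scaled to gene length and to library size), from the table of 9 libraries unless another is named, and differences are on the log2(FPKM + 1) scale, which understates changes of low genes.

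The libraries held 16031464 to 18291952 reads assigned to genes. Of 12 hippocampal marker genes none was at 0 in any library, with a summed level of 281 to 312 FPKM in Con, 226 to 281 in HMD and 244 to 254 in Bet+HMD. Markers of tissue around the hippocampus differed between libraries. The 12 thalamic markers summed to 44.5 to 55.0 FPKM in Con and 45.9 to 49.2 in Bet+HMD, but to 158, 66.5 and 80.5 in HMD replicates 1, 2 and 3, and 8 of the 10 that were tested did not overlap between HMD and Con. The 6 habenular markers summed to 26.1 FPKM in HMD replicate 1 and to 5.34 to 7.40 elsewhere. The defining habenular gene Pou4f1 was listed at 0 in Con replicates 2 and 3. The 8 cortical markers summed to 65.5 to 66.4 FPKM in Bet+HMD, against 31.8 to 48.9 in the other libraries. Blood markers reached 149 to 233 FPKM in HMD, 99.8 to 148 in Con and 72.2 to 122 in Bet+HMD. Choroid plexus markers overlapped between the groups, with 773 to 3215 FPKM over all libraries, and astrocyte markers were at 195 to 196 FPKM in Bet+HMD and 227 to 248 elsewhere. The part of these tissues and cells in the results below was not tested.

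**Figure D1:**
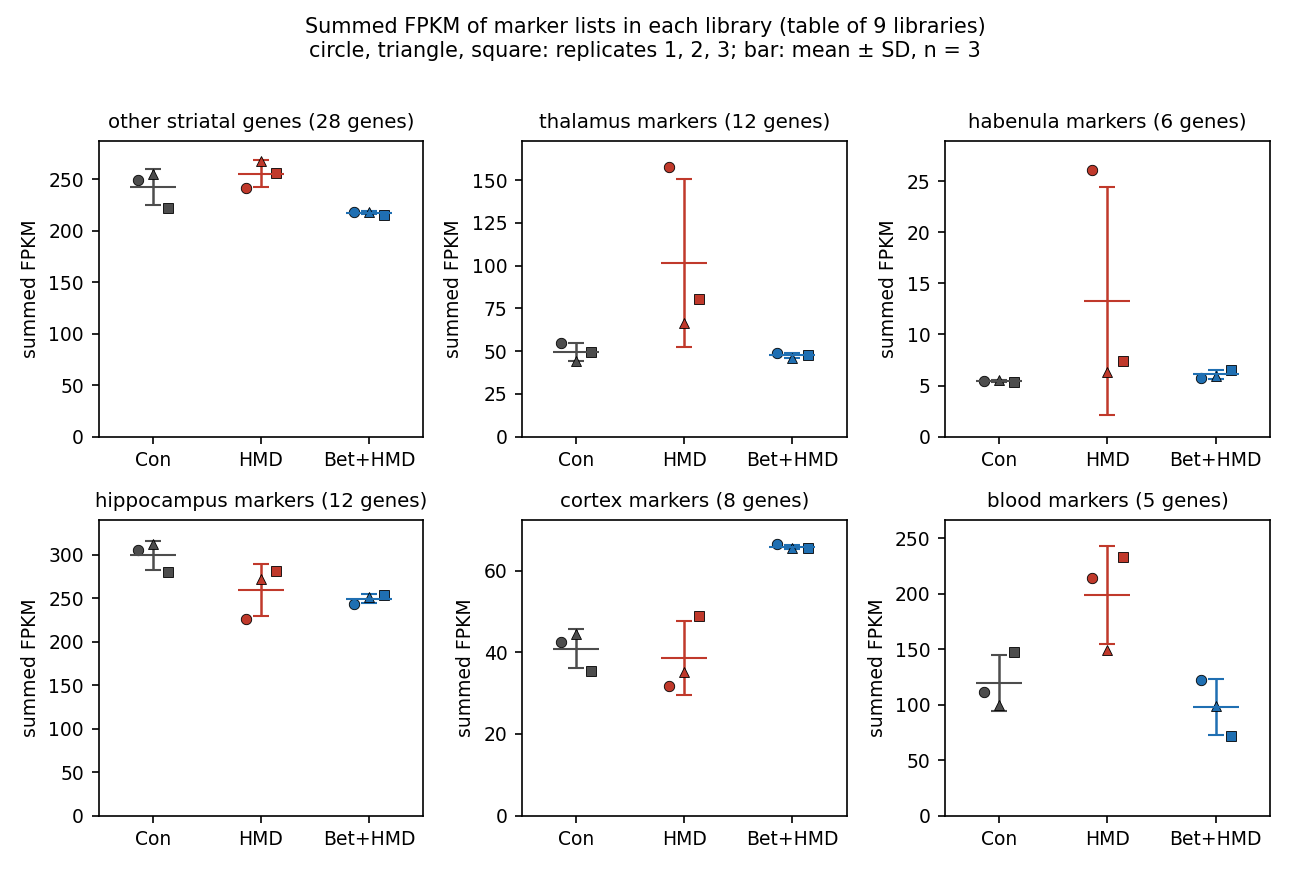
Summed FPKM of 6 marker lists (y axis, linear from 0) in the 3 groups of 3 libraries (x axis), with circles, triangles and squares for replicates 1, 2 and 3 and bars for the mean ± SD. Thalamic and habenular sums are highest in HMD replicate 1, at 158 and 26.1 FPKM, and cortical sums are highest in the 3 Bet+HMD libraries.

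The Bet+HMD libraries also stood apart in other ways. They had a read for 25315 to 25663 genes, against 20816 to 23272 in the other libraries, and their FPKM summed to 249135 to 258514, against 288438 to 307899. These libraries were also scaled by a library size of 1.042 to 1.049 times their reads assigned to genes, against 0.953 to 1.026 elsewhere. They were far more alike than other replicates: with a chi-square that is 1 on average when replicates differ by counting error alone, pairs of Bet+HMD libraries gave a mean of 3.24 to 4.84 per gene, pairs of Con libraries 27.74 to 52.11 and pairs of HMD libraries 14.12 to 27.13. Whether these libraries were prepared or sequenced with the others is not given in the sources used here, so betaine and a batch cannot be told apart. The 2 weeks of betaine also followed the 8 weeks of diet. Added time and age, or an end of the diet, therefore cannot be told apart from betaine either.

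The dopamine receptors differed from each other in how far their groups lay apart. Drd2 encodes the D2 receptor, the inhibitory receptor of the indirect pathway. Its gene lies at chr9:49340627-49408177 on the plus strand of GRCm38. Its level was 0.781, 0.751 and 0.918 FPKM in Con, 2.06, 3.36 and 2.77 in HMD and 0.994, 1.15 and 0.970 in Bet+HMD. These values rest on 31 to 40 reads per library in Con, 91 to 131 in HMD and 43 to 52 in Bet+HMD. All 3 HMD libraries lay above every other library, and the Bet+HMD libraries lay just above Con. In the table of 6 libraries, mean Drd2 was 2.65 ± 0.623 FPKM (SD, n = 3) in HMD and 0.792 ± 0.0877 (n = 3) in Con, a ratio of 3.34 and a log2 difference of 1.01 (SE 0.16). Bet+HMD against HMD gave -0.86 (SE 0.15), with a mean of 1.04 ± 0.10 FPKM (n = 3) in Bet+HMD. Bet+HMD against Con gave 0.17 (SE 0.06) and turned to -0.10 with quantile normalization. The SE of 0.06 rests on 31 to 52 reads per library and may understate counting error. In bulk tissue, fewer cells of a type and less RNA per cell cannot be told apart. Without HMD replicate 1, the library highest in thalamic markers, the difference of Drd2 was 1.15 against Con and -0.99 for Bet+HMD against HMD. HMD replicates 2 and 3 also had thalamic sums above every Con and Bet+HMD library, at 66.5 and 80.5 FPKM. The part of thalamic tissue in these differences was not tested.

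The 250 bases before the start of Drd2 in RefSeq (GRCm38.p6, chr9:49340153-49340402, plus strand) are shown because Drd2 had the largest difference of the 9 genes. Capitals mark GC boxes, the letters GGGCGG on either strand, which the factor Sp1 can bind.
Drd2: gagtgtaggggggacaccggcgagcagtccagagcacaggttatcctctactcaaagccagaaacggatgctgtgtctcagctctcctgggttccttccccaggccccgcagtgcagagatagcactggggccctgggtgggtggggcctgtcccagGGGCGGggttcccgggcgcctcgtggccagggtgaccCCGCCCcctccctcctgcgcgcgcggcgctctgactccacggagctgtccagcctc
The GC boxes begin 93 and 56 bases before the start, and 68.8% of the 250 bases were G or C. Of 32851 promoters in the same reference, 32.7% held a GC box and the median GC content was 52.4%.

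Drd1 encodes the D1 receptor of the direct pathway (chr13:54051183-54055705, minus strand). Its level was 1.17, 2.04 and 1.14 FPKM in Con, 1.76, 1.55 and 2.66 in HMD and 1.57, 1.76 and 1.99 in Bet+HMD. The 3 groups overlapped, and Con replicate 2 was above 2 of the HMD libraries. Its log2 difference was 0.29 (SE 0.20) for HMD against Con, with 0.15 without HMD replicate 3 and 0.46 without Con replicate 2, and -0.09 (SE 0.16) for Bet+HMD against HMD. For Bet+HMD against Con it was 0.20 (SE 0.16), and -0.04 with quantile normalization. The level of Drd2 over that of Drd1 was 0.368 to 0.802 in Con, 1.04 to 2.17 in HMD and 0.486 to 0.655 in Bet+HMD. Each HMD library thus held more Drd2 than Drd1 per length of gene, and each other library held less.

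Adora2a and Gpr6, the other receptors of the indirect pathway, were the lowest of the 9 genes. Adora2a (chr10:75316877-75334784, plus strand) encodes the adenosine A2A receptor, which raises cAMP and opposes the D2 receptor. It was at 0.235, 0.383 and 0.516 FPKM in Con, 0.583, 0.405 and 0.870 in HMD and 0.602, 0.443 and 0.657 in Bet+HMD, from 13 to 45 reads per library. The 3 groups overlapped, and replicate 2 of HMD, where Drd2 was highest, was the lowest HMD library for Adora2a. Its log2 difference was 0.25 (SE 0.16) for HMD against Con and -0.04 (SE 0.13) for Bet+HMD against HMD. For Bet+HMD against Con it was 0.19 (SE 0.10), and -0.05 with quantile normalization. With TPM the difference of Bet+HMD from HMD turned to 0.06 for Drd1 and 0.07 for Adora2a, and without HMD replicate 3 it was 0.06 and 0.07. Without Bet+HMD replicate 2 it was 0.02 for Adora2a.

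Gpr6 (chr10:41069977-41072285, minus strand) encodes a receptor with constant activity that raises cAMP. It was at 0.588, 0.587 and 0.556 FPKM in Con, 0.419, 0.694 and 1.19 in HMD and 0.290, 0.285 and 0.386 in Bet+HMD. The HMD libraries lay on both sides of Con, and the Bet+HMD libraries were below all the others. These values rest on 9, 9 and 12 reads in Bet+HMD, 17 to 19 in Con and 13 to 36 in HMD. The log2 difference was -0.40 (SE 0.19) for Bet+HMD against HMD and -0.26 (SE 0.04) for Bet+HMD against Con. The Con libraries had a coefficient of variation of 3.13%, less than counting error at 17 to 19 reads. The SE of 0.04 therefore understates the uncertainty. For HMD against Con it was 0.12 (SE 0.16), and -0.03 without HMD replicate 3. The 250 bases before its start (chr10:41072291-41072540, minus strand) are shown because they hold a whole cAMP response element, TGACGTCA, in capitals.
Gpr6: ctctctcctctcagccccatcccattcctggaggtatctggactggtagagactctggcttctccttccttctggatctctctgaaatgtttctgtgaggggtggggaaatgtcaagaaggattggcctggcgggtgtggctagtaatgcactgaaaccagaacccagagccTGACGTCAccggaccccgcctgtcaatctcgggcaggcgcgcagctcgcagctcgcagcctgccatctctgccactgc
The element begins 78 bases before the start. It was found in 1.5% of the 32851 promoters, and in no other promoter of the 9 genes that had one in the reference.

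The neuropeptide genes were higher in HMD than in both other groups. Penk (chr4:4133531-4138819, minus strand) encodes preproenkephalin, the source of the enkephalins. Its level was 9.71, 6.61 and 10.1 FPKM in Con, 17.8, 11.7 and 19.2 in HMD and 9.48, 8.68 and 11.1 in Bet+HMD. The lowest HMD library was above every Con and Bet+HMD library, and Con and Bet+HMD overlapped. In the table of 6 libraries the mean was 16.2 ± 3.74 FPKM (n = 3) in HMD and 8.58 ± 1.89 (n = 3) in Con, a ratio of 1.89 and a log2 difference of 0.84 (SE 0.21). Bet+HMD against HMD gave -0.66 (SE 0.18), and Bet+HMD against Con gave 0.15 (SE 0.16), or -0.02 without Con replicate 2. Without HMD replicate 1, Penk differed by 0.76 in HMD against Con and by -0.59 in Bet+HMD against HMD. A noncoding gene on the other strand, A830012C17Rik, overlaps Penk, and since the strand setting of the counting is not given, reads of the pair cannot be told apart.

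Tac1 (chr6:7554879-7565834, plus strand) encodes the precursor of substance P and neurokinin A. It was at 1.81, 2.34 and 2.53 FPKM in Con, 2.79, 3.44 and 3.07 in HMD and 1.90, 1.53 and 1.89 in Bet+HMD. Every HMD library was above every other library, by a smaller margin than for Drd2. The log2 difference was 0.34 (SE 0.14) for HMD against Con, -0.56 (SE 0.11) for Bet+HMD against HMD and -0.21 (SE 0.13) for Bet+HMD against Con. Without HMD replicate 1, the values with HMD were 0.40 and -0.62. Of the 250 bases before its RefSeq start, the 68 outside the gene as listed in the tables (chr6:7554811-7554878, plus strand) are shown with a CRE half-site, the letters TGACG on either strand, in capitals, since this half-site is shared with Gpr6.
Tac1: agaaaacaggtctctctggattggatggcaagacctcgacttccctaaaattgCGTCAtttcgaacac
The half-site begins 197 bases before the start, and another lies 43 bases before it. Of all promoters, 17.8% held a half-site. The level of Penk over that of Tac1 was 2.82 to 5.38 in Con, 3.42 to 6.38 in HMD and 4.996 to 5.85 in Bet+HMD, so the ranges overlapped.

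Rgs9 was the one gene of the 9 that was highest in all 3 Bet+HMD libraries with no overlap. It encodes a regulator of G protein signaling (chr11:109225355-109298129, minus strand). Its level was 1.62, 0.686 and 1.62 FPKM in Con, 1.34, 1.69 and 1.62 in HMD and 2.76, 2.69 and 2.62 in Bet+HMD. Con replicate 2 was far below the other libraries. The mean was 2.69 ± 0.0659 FPKM (n = 3) in Bet+HMD, 1.55 ± 0.182 (n = 3) in HMD and 1.31 ± 0.539 (n = 3) in Con. The log2 difference was 0.54 (SE 0.10) for Bet+HMD against HMD and 0.71 (SE 0.18) for Bet+HMD against Con, and 0.49 in the latter without Con replicate 2. For HMD against Con it was 0.16 (SE 0.20), and -0.05 without that library. The 250 bases before its start (chr11:109298182-109298431, minus strand) are shown because Rgs9 was highest in Bet+HMD. Capitals mark the letters TATAAA (searched on either strand) and a GC box.
Rgs9: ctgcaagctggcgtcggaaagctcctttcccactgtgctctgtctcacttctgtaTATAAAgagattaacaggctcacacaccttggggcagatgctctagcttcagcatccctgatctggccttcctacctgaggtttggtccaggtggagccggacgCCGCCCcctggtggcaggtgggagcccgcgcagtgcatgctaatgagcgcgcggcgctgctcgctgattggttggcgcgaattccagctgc
The letters TATAAA begin 195 and the GC box 91 bases before the start. Of all promoters, 12.4% held TATAAA on either strand. Whether these letters act as a TATA box in Rgs9 was not tested. No promoter entry was found for Adora2a, Ppp1r1b and Penk.

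**Figure D2:**
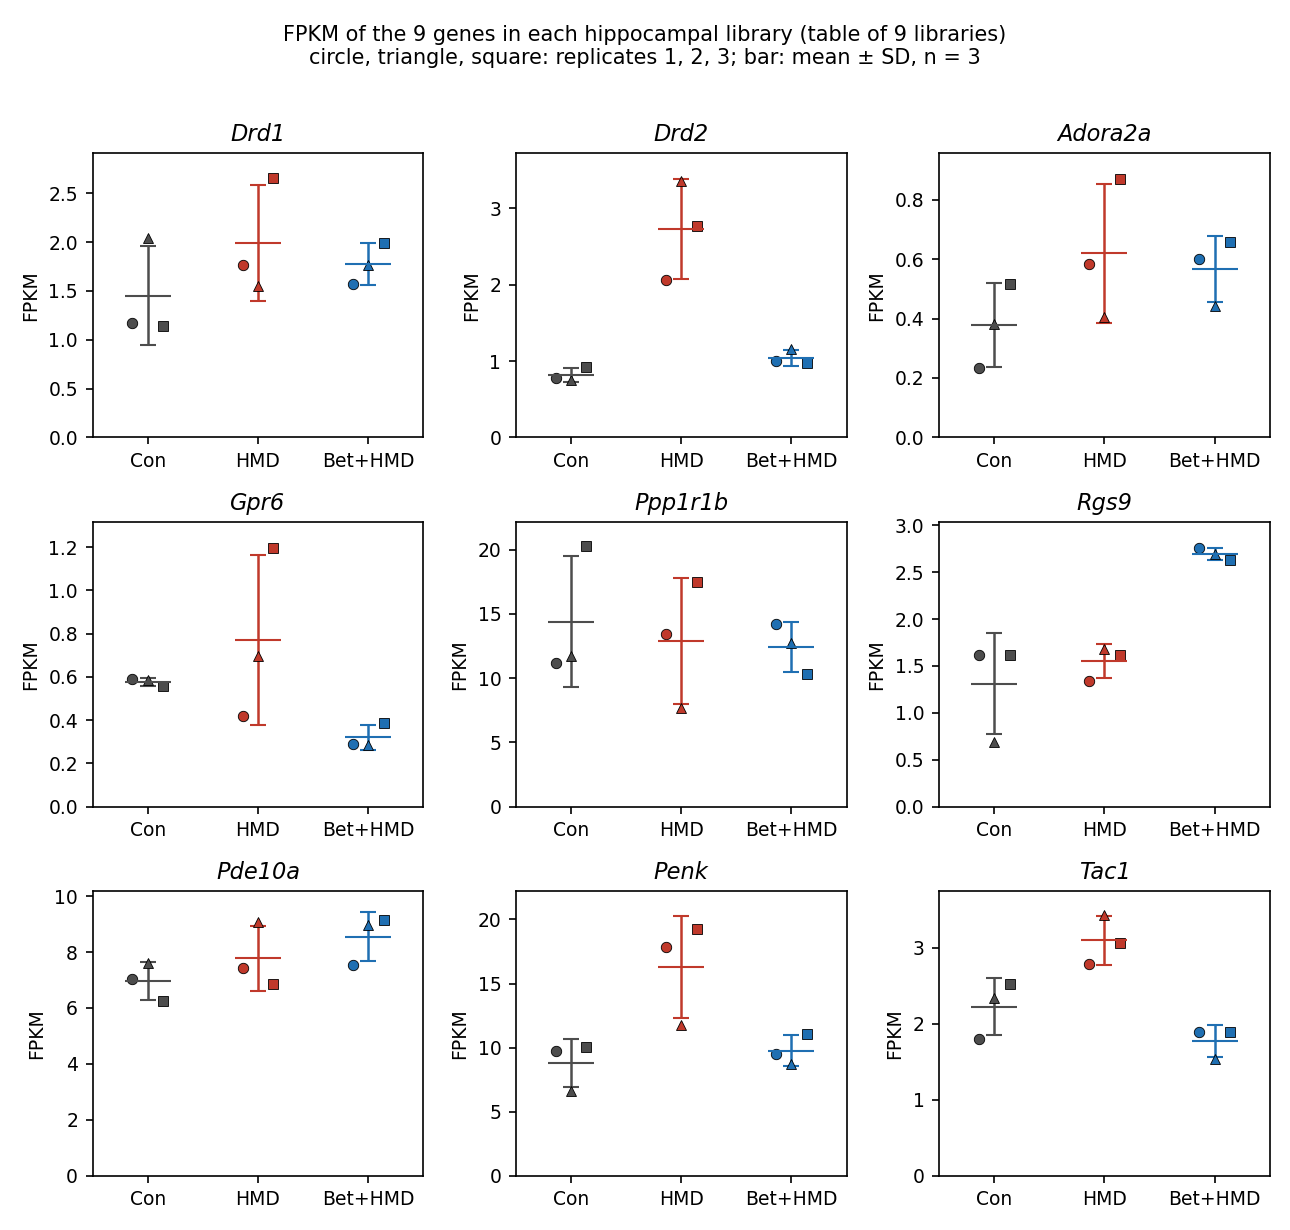
Level in FPKM (y axis, linear from 0) of each of the 9 genes in the 3 groups of 3 libraries (x axis), with circles, triangles and squares for replicates 1, 2 and 3 and bars for the mean ± SD. Drd2, Penk and Tac1 are highest in HMD without overlap, Rgs9 is highest in Bet+HMD and Gpr6 is lowest there.

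Ppp1r1b and Pde10a, the more abundant signaling genes, overlapped in all 3 groups. Ppp1r1b (chr11:98348404-98357796, plus strand) encodes DARPP-32, which inhibits protein phosphatase 1 once protein kinase A has phosphorylated it. It ran from 11.2 to 20.2 FPKM in Con, 7.69 to 17.5 in HMD and 10.3 to 14.2 in Bet+HMD. The lowest library was HMD replicate 2, in which Drd2 was highest. Its log2 difference was -0.17 (SE 0.31) for HMD against Con, and its sign turned without HMD replicate 2 (0.14) or Con replicate 3 (0.08). For Bet+HMD it was 0.01 (SE 0.26) against HMD and -0.16 (SE 0.23) against Con, the latter 0.05 with TPM and 0.10 without Con replicate 3. The value against HMD turned to -0.29 without HMD replicate 2 and was also below 0 without Bet+HMD replicate 1 (-0.08) or 2 (-0.01). The antisense gene 1700003D09Rik overlaps it, so its reads are uncertain in the same way as those of Penk.

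Pde10a (chr17:8525372-8986648, plus strand), whose enzyme breaks down cAMP and cGMP, varied least of the 9 genes. It ran from 6.24 to 7.59 FPKM in Con, 6.85 to 9.08 in HMD and 7.54 to 9.15 in Bet+HMD, from 1371 to 2046 reads per library. Its highest library was 1.47 times its lowest, against 4.47 times for Drd2. The log2 difference was 0.14 (SE 0.13) for HMD against Con, 0.13 (SE 0.12) for Bet+HMD against HMD and 0.26 (SE 0.11) for Bet+HMD against Con. Genes on the other strand, Gm15425, Gm17087 and Gm15426, overlap it.

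Across the 9 genes, HMD exceeded Con in 8, with a median log2 difference of 0.25, against -0.0038 over the 12989 genes tested in the table of 6 libraries. Of the 9, 7 passed the filter of a mean of 1 FPKM, and Adora2a and Gpr6 did not. Drd2 passed only through HMD, with a mean of 0.792 FPKM in Con and 2.65 in HMD. The 3 genes whose HMD libraries all lay above Con (Drd2, Penk and Tac1) stand beside 4.71% of all tested genes that did so. Over all tested genes, limma's moderated test with Benjamini-Hochberg adjustment called 0 (0%) at an adjusted p of 0.05. At an unadjusted p under 0.05 the count was 592, or 4.56%, and limma voom on recovered reads also called 0, with 778 unadjusted. In the table of 9 libraries, the level of 4 of the 9 genes was highest in HMD replicate 3 (Drd1, Adora2a, Gpr6 and Penk) and of 2 in HMD replicate 2 (Drd2 and Tac1). In the table of 6 libraries, Rgs9 and Pde10a were also highest in HMD replicate 2.

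In Bet+HMD against HMD the differences ran from -0.86 (Drd2) to 0.54 (Rgs9), with a median of -0.09 over the 9 genes and -0.03 over the 13672 genes tested. In this comparison 48.3% of all tested genes passed the adjusted p, 25.5% lower and 22.8% higher. Of the 9, Adora2a and Gpr6 were again below the filter. Libraries did not overlap for 5 of the 9, beside 60.1% of all tested genes: Rgs9 was higher (28.3% of all tested genes) and Drd2, Penk, Tac1 and Gpr6 were lower (31.8%).

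In Bet+HMD against Con the median was 0.17 over the 9 genes, and -0.04 over the 13643 genes tested. In this comparison 39.7% of all tested genes passed the adjusted p (19.4% higher). Of the 9, Drd2, Adora2a and Gpr6 were below the filter. The groups did not overlap for Drd2 and Rgs9, which were higher in Bet+HMD (26.1% of all tested genes), and Gpr6, which was lower (29%), against 55.1% of all tested genes in either direction. HMD is shared by the first 2 comparisons and Bet+HMD by the last 2, so an HMD library that is high moves both of its comparisons, in opposite directions.

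**Figure D3:**
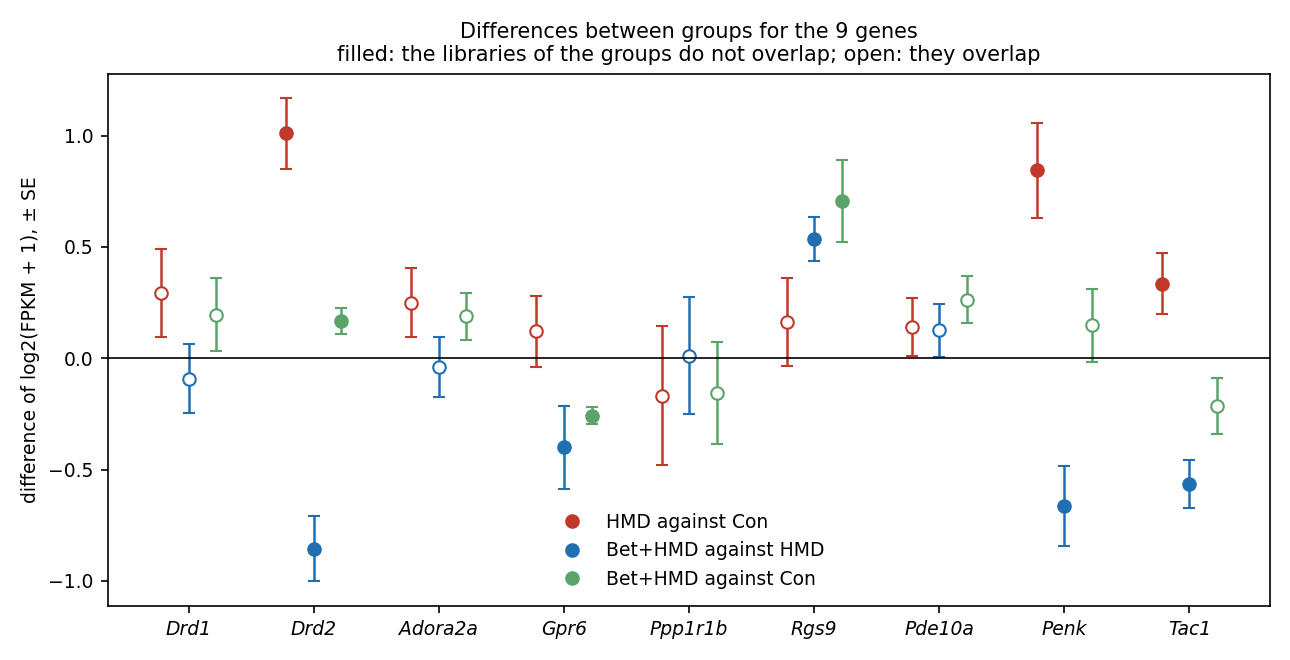
Difference of log2(FPKM + 1) between groups (y axis, bars for the SE) for the 9 genes (x axis) in the 3 comparisons, filled where the libraries of the groups do not overlap. Drd2 stands at 1.01 for HMD against Con and at -0.86 for Bet+HMD against HMD, and Rgs9 is positive in both comparisons of Bet+HMD.

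A further 75 genes of the same biology were found in the tables, and those that passed the filter were tested. The 75 are 28 other striatal genes, 3 dopamine receptors, 8 genes of dopamine synthesis, transport and breakdown, 26 genes of cAMP signaling and 10 receptors related to A2A and GPR6 or bound by opioids and tachykinins. Their lists were chosen with earlier results of these data known, so their p-values and counts are not independent evidence. In HMD against Con, 57 passed the filter, 0 passed an adjusted p of 0.05 and 5 had an unadjusted p under 0.05, and voom gave 0 with 9 unadjusted. The 3 with the smallest p were Scn4b, a sodium channel subunit of spiny neurons, at 0.84 (SE 0.19, adjusted p = 0.73 by limma), Rasd2, a striatal small G protein, at 0.39 (SE 0.14, adjusted p = 0.98 by limma) and Pde7b, a cAMP phosphodiesterase, at 0.35 (SE 0.14, adjusted p = 0.98 by limma). Scn4b was at 3.50 ± 1.08 FPKM (n = 3) in Con and 6.97 ± 1.12 (n = 3) in HMD. The median over the 20 other striatal genes tested was 0.06, beside -0.0038 over all tested genes.

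The other dopamine receptors were low. Drd3 was listed at 0 in the 3 Con libraries and had at most 3 reads elsewhere, and Drd4 had 0 to 25 reads per library. Drd5, a D1-like receptor known from the hippocampus, was at 2.57 ± 0.316 FPKM (n = 3) in Con, 2.02 ± 0.468 (n = 3) in HMD and 1.25 ± 0.248 (n = 3) in Bet+HMD. It was lower in Bet+HMD than in Con by limma (log2 difference -0.67, SE 0.13, adjusted p = 0.0066) and its difference from HMD was -0.42, which did not pass here, with TPM (-0.42), with a pseudocount of 0.1, with no filter or without any single library, but passed with quantile normalization (-0.63), voom (-0.69), the filter at 10 reads, all 3 groups in the fit and the replicate block. The transporter of dopaminergic terminals, Slc6a3, had 0 to 10 reads per library, and tyrosine hydroxylase, Th, had 4 to 27.

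Of the 58 genes tested in Bet+HMD against HMD, 29 passed, 6 higher and 23 lower, or 50%, beside 48.3% of all genes. After rescaling to TPM, which moves the median of all genes from -0.03 to 0.16, the split was 11 higher and 12 lower, and over all genes 4496 of 6470 calls were higher where 3118 of 6607 were before. The 14 calls among 25 cAMP genes were lower in 13, but with TPM 9 were called, 4 higher and 5 lower, and with quantile normalization 12, 4 higher and 8 lower. Those furthest from 0 were Rgs14 (-0.91), a regulator known from area CA2, the inhibitory G protein subunit Gnai1 (-0.81), Rgs2 (-0.71) and the calcineurin catalytic subunits Ppp3cb (-0.55) and Ppp3ca (-0.52). Both calcineurin calls were lost with TPM and with quantile normalization, and that of Ppp3cb also without Bet+HMD replicate 1 (-0.52) or 2 (-0.54). The 1 that was higher was the phosphodiesterase Pde4a (0.36), named after its value was seen.

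The other striatal genes went both ways in this comparison, with 10 of 21 called, 4 higher and 6 lower. Lrrc10b was at a mean of 25.6 FPKM in HMD and 9.93 in Bet+HMD (-1.27, SE 0.19, adjusted p = 0.0017 by limma). Strip2 (-0.61) and Rasd2 (-0.58) were also lower, and Arpp21 (0.61), a cAMP-regulated phosphoprotein, and the transcription factor Meis2 (0.59) were higher. Of 5 genes of dopamine synthesis and breakdown that were tested, the decarboxylase Ddc (-0.59) and monoamine oxidase Maob (-0.44) were lower, the latter not with TPM. Among 6 related receptors, Adora2b (-0.62) and Gpr12 (-0.57) were lower and the opioid receptor Oprd1 (0.38) was higher, the last not with quantile normalization (0.21) nor, among others, without HMD replicate 3 (0.26), HMD replicate 2 or any Bet+HMD library. Cortical markers, which were higher in Bet+HMD for 5 of 7 tested, and thalamic markers, which were lower for 5 of 10, moved in the same comparison, and their part was not tested.

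In Bet+HMD against Con, 23 of 58 passed (39.7%, the same as the 39.7% of all genes), 6 higher and 17 lower, and 11 higher and 8 lower with TPM. Without any one of the Bet+HMD libraries 12 or 13 passed. Striatal genes again went both ways, with 5 higher and 4 lower of 21. Lrrc10b (-1.10) and the retinoid receptor Rxrg (-0.59) were lower, and Scn4b (0.58) and Arpp21 (0.57) were higher. The calls for Rxrg and Scn4b were lost without any single Bet+HMD library, at -0.66 to -0.48 and 0.53 to 0.67, and also without Con replicate 1 (-0.52 and 0.41), without Con replicate 2 for Rxrg (-0.48) and without Con replicate 3 for Scn4b (0.57). Rgs14 (-1.15), Gnai1 (-0.72), Ppp3ca (-0.57), Rgs2 (-0.56) and Pde4a (0.52) led the 10 of 25 cAMP genes called, of which 9 were lower, against 4 of 7 with TPM and 2 of 4 with quantile normalization. Adora2b (-0.79), Gpr12 (-0.74) and Maob (-0.37) were lower as well. With quantile normalization the calls for Gnai1 (-0.31), Ppp3ca (-0.14) and Maob (-0.30) were lost, that for Pde4a was lost without Bet+HMD replicate 3 (0.48), and that for Maob was lost without any Bet+HMD library and without Con replicate 2 or 3 (-0.42 to -0.29).

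**Figure D4:**
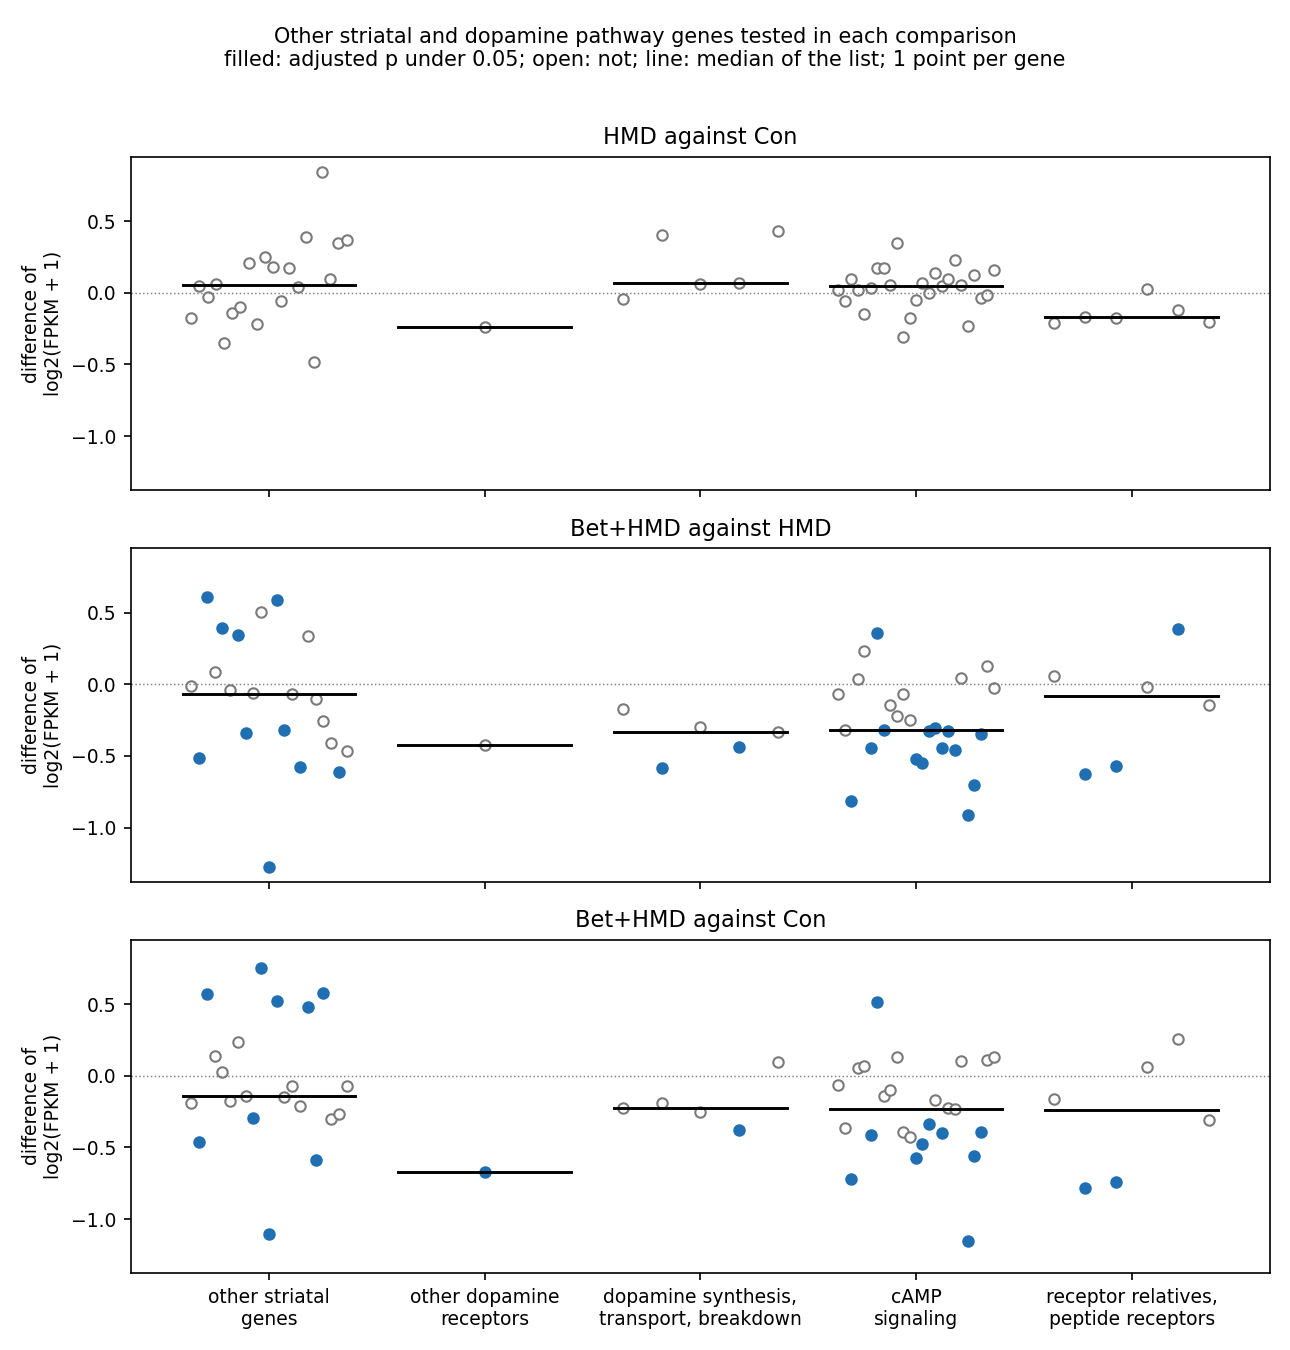
Difference of log2(FPKM + 1) (y axis) of each tested gene of 5 lists (x axis) in 3 comparisons (panels), filled where the adjusted p was under 0.05, with a line at the median of the list. No point is filled for HMD against Con, and most filled points of the cAMP list lie below 0 in both comparisons of Bet+HMD (with TPM, 5 of 9 and 4 of 7 called).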

How the data were processed

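Ribosomal RNA was depleted and stranded paired-end libraries were sequenced. Per the labels, reads were aligned with HISAT2 2.1.0 to mm10 and counted with featureCounts 1.5.0-p3, and the strand setting is not given in the sources used here. The authors deposited FPKM in 2 tables, with the gene length in bases (another unit, as deposited) and position. Of 54532 genes, 54409 had an identifier in GENCODE M21, 98.3% of them at the same position. FPKM times gene length and library size gave whole reads (within 0.05) for 100% of values, so depth was known. The 6 shared libraries had the same reads for 69.9% to 82.2% of all 54532 genes in both tables. Only 20816 to 23311 genes had a read in a shared library, so the share with the same reads was lower among genes with reads. Over all genes, log2 reads of a shared library correlated at 0.9991 to 0.9995 between the tables, but many reads were not the same. Tests were therefore made within a table, HMD against Con in that of 6 libraries. Columns named COL were read as Con, since the remaining prefixes stand for HMD and Bet+HMD.

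Limma 3.58.1 in R 4.3.3 (empirical Bayes with trend) was run per comparison on log2(FPKM + 1) of its 2 groups, for genes with a mean of at least 1 FPKM, two-sided and adjusted over all genes tested. A library with 3 reads or fewer for a gene was taken as at the floor, and floors cover counting error only. An exact permutation test of 3 against 3 libraries cannot give a p under 0.1 and was not used. The SE of a gene below the filter came from the pooled SD, was not moderated and can fall below counting error. p-values measure the spread between these libraries, which may be partly technical. Tested on simulated data, the fit recovered 95% to 100% of genes changed by 2-fold, with 10 to 25 false calls per comparison. The simulation gave all genes one fixed spread between replicates, not that of these libraries. This recovery therefore cannot be carried over to the comparisons here. The members and lists were chosen with earlier results of these data known. Named genes were the 9 members, at most the 5 largest differences past the threshold per list and comparison, the 3 with the smallest p where none passed, and the 5 genes most like the members. A gene that this rule names is not reported here. Of 29 listed striatal genes, 28 were matched. Promoters came from RefSeq, 250 bases before each start, for 6 of the 9 genes. The alternatives were another pseudocount, filter or scaling, all 3 groups in one fit, a replicate block, the table of 9 libraries, voom on recovered reads (chosen after seeing the data) and leaving out each library.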

Additional observations from a re-analysis of the deposited data

How the results depend on the processing

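The differences of Drd2, Penk and Tac1 kept their sign in every alternative run for HMD against Con (0.90 to 1.69, 0.67 to 1.04 and 0.23 to 0.47) and for Bet+HMD against HMD (-1.34 to -0.74, -0.87 to -0.50 and -0.80 to -0.50). So did Rgs9 (0.33 to 0.88), Gpr6 (-1.11 to -0.23) and Pde10a (0.05 to 0.33) for Bet+HMD against HMD. For HMD against Con, Drd1 (0.15 to 0.50), Adora2a (0.14 to 0.79) and Pde10a (0.04 to 0.21) kept their sign too, though their groups overlapped. A kept sign thus did not set Drd2, Penk and Tac1 apart. Over the 9 genes, the median for HMD against Con was 0.45 with a pseudocount of 0.1, 0.42 with TPM and 0.47 with voom, and 0.15 to 0.29 without single libraries. For Bet+HMD against HMD it was -0.31 with quantile normalization and 0.06 with TPM, and -0.29 to 0.0485 without single libraries, the first without HMD replicate 2 and the last without HMD replicate 3. For Bet+HMD against Con it was 0.29 with a pseudocount of 0.1, 0.44 with TPM, 0.30 with voom and -0.0386 with quantile normalization. By construction, a pseudocount that is smaller beside the values enlarges differences of low genes. Genes called in HMD against Con numbered 9 with all 3 groups in the fit, and 0 to 2 without single libraries, the 2 without Con replicate 2. In Bet+HMD against Con they numbered 3302 to 6269 without single libraries, with 3424, 3347 and 3302 without Bet+HMD replicates 1, 2 and 3. There the pathway genes called were 13 with quantile normalization, 15 with the replicate block and 12 to 27 without single libraries. Quantile normalization reversed Prkaca (0.0433) and Prkar1b (0.0631) in Bet+HMD against HMD and Gng7 (0.0052) and Prkaca (0.0667) in Bet+HMD against Con; the cause was not tested.

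Deviations of same-numbered libraries correlated at -0.06, 0.35 and 0.32 for HMD with Con. They correlated at 0.02, -0.10 and -0.15 for Bet+HMD with HMD, and at -0.05, -0.09 and -0.18 for Bet+HMD with Con. Libraries of different numbers were not compared, so whether the replicate numbers pair the libraries was not tested. With the replicate block the genes called were 0, 5615 and 3924 in these comparisons and the pathway genes 0, 26 and 15. In HMD against Con the genes with an unadjusted p under 0.05 by limma numbered 1034 with the block and 592 without it. An edgeR test on recovered reads was planned and not run, since the deposited values are FPKM. Depth limits Adora2a and Gpr6 most, with 9 to 45 reads per library in the table of 9 libraries. It also limits Drd2, with 31 to 40 reads per library in Con and 43 to 52 in Bet+HMD.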

Other observations

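The genes whose levels ran most like the 9 were found by Pearson r of log2(FPKM + 1) with the mean of the standardized levels of the 7 members of at least 1 FPKM, given as a description because the libraries fall into groups. Over the 9 libraries of the later table these were the receptor Notch4 and the immunoglobulin-superfamily protein Ptgfrn (both r = 0.900), Gm44718 (0.885), the arrestin-domain protein Arrdc2 (0.875) and the phosphatase Inpp5d (0.873), out of 13457 genes. Arrdc2 stood at 3.25 FPKM in Con, 7.61 in HMD and 4.14 in Bet+HMD. Over the 6 libraries of the first table they were Gm43848 (0.993), Ptgfrn and Tfap4 (both 0.990), Spg7 (0.987) and Spsb1 (0.980), so Ptgfrn was named in both. Ptgfrn was at 1.86 FPKM in Con, 2.49 in HMD and 2.00 in Bet+HMD.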
